A study of Mus musculus with 3 samples.

Results

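Gfap-high untreated astrocytes were 902 of the 9818 cells kept from 1 mouse astrocyte library, or 9.19% of that library, and the series held 33927 kept cells in 3 libraries. They were chosen by their own counts, as cells with 4 or more UMIs (unique molecular identifiers, each counted as 1 captured RNA molecule) of Gfap and at most 2 UMIs of Acta2 plus Tagln, a pair of contractile genes. They were set against cells of the same library with 0 Gfap UMIs and the same limit on Acta2 and Tagln, which numbered 4634. Each Gfap-high cell was paired with the Gfap-zero cell closest in total UMIs, which gave 902 cells in each set. The values of Gfap, Acta2 and Tagln are therefore a description of the choice and not a result.

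The study measured cultured cells of mouse cortex, strain C57BL/6, as 1 10x Genomics library for each of 3 groups, after fixation in methanol. MIM-Astrocytes had spent at most 5 days in MIM, which lacks serum and carries FGF2 (20 ng/mL) with up to 6 metabolites. Which of these 6 (cysteine, glycine, methionine, S-adenosylmethionine, putrescine or threonine) this library received, and for how long, the labels do not give. Astrocytes, the library described here, stayed in a differentiation medium with 10% serum. NSC, neural stem cells, came from embryonic cortex and grew as neurospheres without serum, fed with EGF and FGF2 (20 ng/mL). The age label is E14.5 in all groups. The growth protocol describes astrocytes either from cortex at postnatal day 4, purified with beads against GLAST, or from neurospheres. It does not say which route gave these cells. A library of 1 culture gives no replicate, so no difference below has a test, and each interval is an exact 95% interval that covers counting error only.

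Gfap encodes glial fibrillary acidic protein, the intermediate filament that marks many mature astrocytes and rises when astrocytes become reactive after injury or inflammation. It assembles with vimentin and nestin, which are also present in immature astrocytes and in neural stem cells. Astrocytes in the brain differ in how much Gfap they make, and many cortical astrocytes that express other astrocyte genes have little of it. Cultures of astrocytes in serum commonly hold cells with high and low Gfap side by side.

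The depth of the sets was alike. Gfap-high cells had from 552 to 13658 UMIs with a median of 5380, and the matched Gfap-zero cells had from 551 to 13067 with a median of 5379.5. The largest gap within a pair was 4.33%. Median genes per cell were 1884 in Gfap-high cells and 1909 in matched Gfap-zero cells. Mitochondrial genes took a median of 1.69% of UMIs in Gfap-high cells and 1.73% in matched Gfap-zero cells. Malat1, an abundant nuclear RNA, took a median of 14.4% of UMIs in Gfap-high cells and 13.9% in matched Gfap-zero cells. Scrublet, a doublet caller, called 0 cells of the library, which is too few for it to have worked, so doublets were kept. Of the cells with the highest 8% of Scrublet scores, 101 were Gfap-high cells (11.2% of the set) and 76 were matched Gfap-zero cells (8.43%). Cell barcodes of the astrocyte library recurred 43 times among MIM-Astrocytes and 25 times among NSC.

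Gfap was spread unevenly over the library. A Gfap UMI was absent from 53.6% of kept cells. Gfap-high cells held 7328 of the 13736 Gfap UMIs of the library, or 53.3%. Among themselves they had a median of 6 Gfap UMIs, with quartiles of 4 and 9 and a highest count of 70. The 202 Gfap-high cells with 10 or more UMIs held 47.0% of the Gfap UMIs of the set. Just inside the limit were 244 cells with 4 Gfap UMIs, and just outside it were 431 with 3. Of the Gfap-high cells, 693 had 0 UMIs of Acta2 plus Tagln, 162 had 1 and 47 had 2. The limit on these genes removed 141 further cells with 4 or more Gfap UMIs, of which 23 had 3 contractile UMIs. In the 387 cells with 10 or more contractile UMIs, 46 (11.9%) had 4 or more Gfap UMIs at a median depth of 6077 UMIs, and 10.6% of all kept cells did at a median depth of 5089. Their Gfap level was 208 CPM, where CPM are UMIs scaled to a total of 1e+06, against 271 CPM in the whole library. Gfap UMIs were thus present in the contractile cells that the limit set aside.

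**Figure D1:**
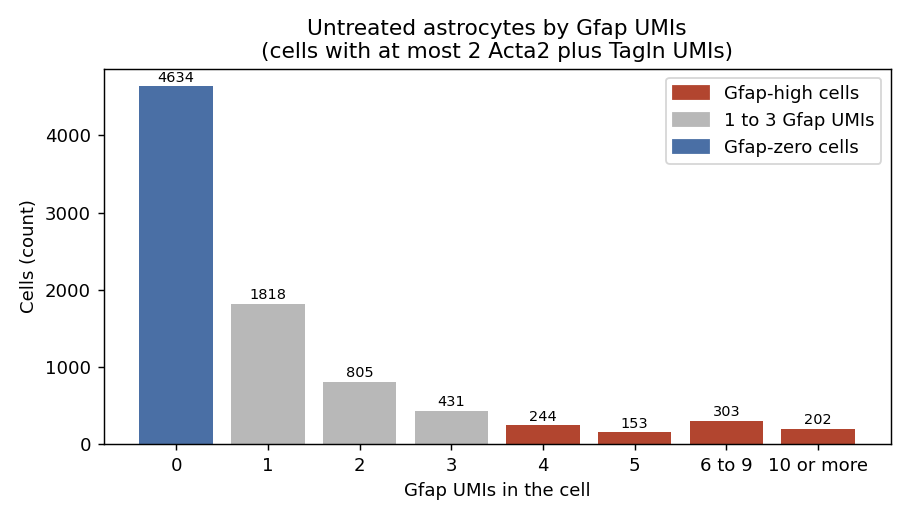
Number of untreated astrocytes (y axis, cells) at each count of Gfap UMIs (x axis), for cells with at most 2 UMIs of Acta2 plus Tagln. Red bars are the Gfap-high cells, grey bars cells with 1 to 3 Gfap UMIs and the blue bar the Gfap-zero cells; the bars step down from 4634 cells at 0 to 244 cells at 4, with no second peak in the single counts.

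Cells that met the same limits were rare outside the untreated astrocytes. They were 4 of 14964 MIM-Astrocytes (0.0267%, interval 0.00728% to 0.0684%), 902 of 9818 Astrocytes (9.19%, interval 8.62% to 9.78%) and 0 of 9145 NSC, a count that allows a share of up to 0.0328%. The median depth was 3156 UMIs in MIM-Astrocytes, 5089 in Astrocytes and 1379 in NSC. After each cell was thinned to 3000 UMIs and shallower cells were left out, 0 of 8022 MIM-Astrocytes met the limits, which allows up to 0.0374%, against 433 of 8742 Astrocytes (4.95%, interval 4.51% to 5.43%). At that depth 0 of 486 NSC met them, which allows up to 0.617%. The 4 MIM-Astrocytes had 5, 4, 4 and 4 Gfap UMIs, and 1 of them had any Aqp4. Gfap as a whole stood at 4.05 CPM in MIM-Astrocytes, 271 CPM in Astrocytes and 1.16 CPM in NSC. The 3 libraries are 1 culture each, and treatment, medium and library cannot be told apart.

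Promoter sequences are shown for 4 of the genes described here. They are the 250 bases before the start of each gene, from RefSeq on GRCm38.p6 (mm10), written in the direction of the gene. Gfap (ENSMUSG00000020932) is the gene that chose the cells, and its window is chr11:102897201-102897450 on the minus strand, inside the longer Gfap gene of GENCODE. Padi2 (ENSMUSG00000028927), the gene with the largest fold among those higher in Gfap-high cells, has its window at chr4:140906110-140906359 on the plus strand. Isg15 (ENSMUSG00000035692) and Cxcl10, a pair of interferon-induced genes with lower values, have theirs at chr4:156200819-156201068 and chr5:92348890-92349139, both on the minus strand. Cxcl10 was seen in 9 Gfap-high cells and 13 matched Gfap-zero cells, so its lower value rests on few cells. Capitals mark matches to the core of the interferon-stimulated response element, searched as GAAA and GAAA with any 2 bases between them; matches overlap each other in Isg15.
Gfap: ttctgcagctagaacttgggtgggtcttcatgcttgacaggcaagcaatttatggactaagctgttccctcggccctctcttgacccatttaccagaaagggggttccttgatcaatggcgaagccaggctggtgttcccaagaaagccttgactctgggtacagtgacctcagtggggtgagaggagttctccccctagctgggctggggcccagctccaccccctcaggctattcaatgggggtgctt
Padi2: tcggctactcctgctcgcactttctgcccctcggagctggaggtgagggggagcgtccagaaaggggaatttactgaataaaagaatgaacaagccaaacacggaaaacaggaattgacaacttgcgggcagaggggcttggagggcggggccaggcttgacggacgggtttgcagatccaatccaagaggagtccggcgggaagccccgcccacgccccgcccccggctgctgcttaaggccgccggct
Isg15: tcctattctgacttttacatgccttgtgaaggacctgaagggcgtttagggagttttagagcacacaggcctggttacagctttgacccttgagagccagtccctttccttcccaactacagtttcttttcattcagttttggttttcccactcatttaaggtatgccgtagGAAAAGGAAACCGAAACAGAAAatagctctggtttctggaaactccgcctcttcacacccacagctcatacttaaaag
Cxcl10: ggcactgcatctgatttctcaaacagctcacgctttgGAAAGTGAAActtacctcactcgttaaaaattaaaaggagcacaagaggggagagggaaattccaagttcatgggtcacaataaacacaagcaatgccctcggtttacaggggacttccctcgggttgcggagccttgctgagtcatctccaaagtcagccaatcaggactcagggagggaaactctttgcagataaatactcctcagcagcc
Read on both strands, this motif was in 978 of 32851 mouse promoter windows (2.98%). Of the 15 called genes that differed most on either side, 12 had windows in the table in both cases. The motif was in 0 of 15 windows of the higher genes and in 4 of 17 windows of the lower genes, those of Cxcl10, Dhrs3 and Isg15, or 3 of 12 genes, since 2 overlapping windows of Dhrs3 hold the same site. TTCNNNGAA, a binding site form of STAT proteins, was in 1 of the 15 higher windows (Setd7) and in 0 of the 17 lower ones, against 7.02% of all windows. The Gfap window held neither. The 2.98% is a share of windows, so the 3 of 12 genes cannot be set against it. These counts are small and were not tested. A match describes letters only and is no evidence of binding.

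Apart from the genes that chose them, Gfap-high cells were close to matched Gfap-zero cells in most genes. A gene was called higher or lower where its CPM, with 1 CPM added, differed at least 1.5-fold and it reached 20 CPM in either set. Of 4789 genes tested, 18 were called higher (0.376%), 23 lower (0.48%) and 41 in either direction (0.856%). The median log2 ratio was -0.03, the 5th and 95th percentiles were -0.29 and 0.27, and 88.2% of genes lay within 1.2-fold. At 100 CPM or more, 4 of 1495 genes were called higher and 1 lower. Of the 41 called genes, 18 were under 30 CPM in both sets. At 2-fold, 1 gene was higher and 9 were lower. The 95% interval of the fold left out 1 for each of the 41, but the genes were chosen for size, so this is no support for them. Over 20 alternatives, Padi2, Slc38a1, Lcn2, Dhrs3, Fbln5 and Cryba4 were the named genes that never came under 1.5-fold. Changes of the CPM filter and of the size rule are among these alternatives and cannot alter a log2 ratio. Of the 30 genes of the naming rule, 21 came under it with 2 or more Gfap UMIs, 16 with no depth matching and 15 with pairing within clusters.

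The genes called higher were led by Padi2, which encodes peptidylarginine deiminase 2, an enzyme that turns arginine in proteins into citrulline and has GFAP among its known substrates. Padi2 (chr4:140906344-140952586) had 115 UMIs in 95 Gfap-high cells and 48 UMIs in 43 matched Gfap-zero cells, or 22.6 CPM against 9.42 CPM, a fold of 2.39 with an interval of 1.70 to 3.43. After thinning to 3000 UMIs it was seen in 5.55% of 865 Gfap-high cells and in 2.31% of 865 matched Gfap-zero cells. It is a sparse transcript in both sets.

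Slc38a1, Sparcl1 and C1ql1 were called higher with more UMIs behind them. Slc38a1, a sodium-coupled carrier of glutamine and other neutral amino acids, was at 107.3 CPM in Gfap-high cells and 60.8 CPM in matched Gfap-zero cells, a fold of 1.76 with an interval of 1.53 to 2.03. Its neighbour on chromosome 15, Slc38a2, a carrier of the same family, was at 30.6 CPM in Gfap-high cells and 19.8 CPM in matched Gfap-zero cells. A Slc38a1 UMI was present in 27.9% of Gfap-high cells and 16.2% of matched Gfap-zero cells after thinning, and in 40.1% of Gfap-high cells and 26.1% of matched Gfap-zero cells without thinning. Sparcl1, the secreted matrix protein hevin that astrocytes release at synapses, had 2553 UMIs in Gfap-high cells and 1674 in matched Gfap-zero cells, or 500.8 CPM against 328.6 CPM, a fold of 1.52 with an interval of 1.43 to 1.62. C1ql1, a secreted protein of the C1q family that organises synapses, was at 142.6 CPM in Gfap-high cells and 92.1 CPM in matched Gfap-zero cells, a fold of 1.55 with an interval of 1.38 to 1.74. Sparcl1 and Slc38a1 were carried by many cells of each set. Their 5 richest cells held 3.72% of the Sparcl1 UMIs and 4.39% of the Slc38a1 UMIs of the Gfap-high set.

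C1ql1 lies beside Gfap in the genome. Gfap is at chr11:102887336-102900912 and C1ql1 at chr11:102939264-102946688 in GENCODE vM21 (mm10), both on the minus strand and 38352 bases apart, with Kif18b between them at 1 UMI in each set. Eftud2, a splicing factor gene on the other side of Gfap, had a log2 ratio of 0.31, and the nearby genes Gjc1, Dcakd and Nmt1 had 0.20, 0.12 and 0.07. Ccdc43 had -0.13. Within 200 kb of Gfap, the genes tested were Ccdc43, Gjc1, Eftud2, C1ql1, Dcakd and Nmt1. Of these, C1ql1 alone was called, at a log2 ratio of 0.63, near the size limit. Over all genes tested, 0.376% were called higher. Other genes there, such as Adam11 and Ccdc103, were below 20 CPM and could not be called.

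Of the remaining named higher genes, Ucma, a secreted protein best known from cartilage, was at 75.7 CPM in Gfap-high cells and 43.6 CPM in matched Gfap-zero cells. Nppc, the C-type natriuretic peptide, was at 52.2 CPM in Gfap-high cells and 30.8 CPM in matched Gfap-zero cells. Cmtm5, a small membrane protein, was at 88.5 CPM in Gfap-high cells and 56.7 CPM in matched Gfap-zero cells. Abca5 and Atp11b, a lipid transporter and a subunit of a lipid flippase, had log2 ratios of 0.67 and 0.63. Setd7, a protein methyltransferase, Tmem117, a membrane protein, Hspa2, a chaperone, and Sorbs2, an adaptor of the actin cytoskeleton, lay between 0.59 and 0.60. The last 4 were near the size limit of the call, as were Slc38a2 at 0.60, Sparcl1 at 0.61 and C1ql1, Atp11b and Cmtm5 at 0.63. Over 20 alternatives, Hspa2 and Sorbs2 came under 1.5-fold in 11, Abca5 and Setd7 in 8, and Atp11b and Tmem117 in 7. Cmtm5 and Sparcl1 did so in 6, Nppc and Slc38a2 in 5, Ucma in 4 and C1ql1 in 3.

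Nnat, which encodes the small membrane protein neuronatin from a paternally expressed gene, was concentrated in few cells. It had 921 UMIs in 100 Gfap-high cells and 477 UMIs in 78 matched Gfap-zero cells, or 180.7 CPM against 93.6 CPM. The 5 richest cells held 40.8% of its UMIs in Gfap-high cells and 46.5% in matched Gfap-zero cells. Its log2 ratio was 0.94, and 0.31 where cells were paired within the same cluster, a choice made after seeing the data, which is below the limit of the call.

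Phlda3, Cdkn1a and Ccng1 are targets of the tumour suppressor p53: Cdkn1a encodes p21, the inhibitor of cyclin-dependent kinases, Phlda3 a repressor of Akt signalling and Ccng1 cyclin G1. Phlda3 was at 25.9 CPM in Gfap-high cells and 59.5 CPM in matched Gfap-zero cells, a log2 ratio of -1.17. Cdkn1a (chr17:29090976-29100727) had 148 UMIs in 108 Gfap-high cells and 312 UMIs in 183 matched Gfap-zero cells, or 29.0 CPM against 61.2 CPM, a log2 ratio of -1.05. Ccng1 was at 37.1 CPM in Gfap-high cells and 63.0 CPM in matched Gfap-zero cells. Of 12 genes at 20 CPM or more in a list of p53 targets, 4 were called lower and 0 higher. That list was drawn up after these values were seen, and it includes Trp53, the gene of p53. The fourth gene called lower was Trp53inp1 at 14.9 CPM in Gfap-high cells and 22.96 CPM in matched Gfap-zero cells. The list median was -0.40, against -0.03 for all genes tested, of which 0.48% were called lower. Trp53 itself was at 21.2 CPM in Gfap-high cells and 15.3 CPM in matched Gfap-zero cells and was not called.

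After thinning to 3000 UMIs, 4 of 865 Gfap-high cells (0.462%, interval 0.126% to 1.18%) had 10 or more UMIs summed over that list, against 40 of 865 matched Gfap-zero cells (4.62%, interval 3.32% to 6.24%). The median was 2 UMIs in Gfap-high cells and 3 UMIs in matched Gfap-zero cells. Cells with 5 or more UMIs of the list were 17.9% of Gfap-high cells (interval 15.4% to 20.6%) and 26.2% of matched Gfap-zero cells (interval 23.3% to 29.3%). Cells with 3 or more were 49.4% of Gfap-high cells (interval 46.0% to 52.8%) and 58.2% of matched Gfap-zero cells (interval 54.8% to 61.5%). The share was lower in Gfap-high cells at each of these limits, which are nested. The list was drawn up after its values were seen and holds genes called lower in the same cells. A lower share is therefore no separate support.

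Clusters made without Gfap, Acta2 and Tagln held Gfap-high cells in unequal shares. Cluster 4, 597 cells led by Cdkn1a, Phlda3, Trp53inp1 and Ccng1, had 11 Gfap-high cells among its 540 cells within the contractile limit (2.04%, interval 1.02% to 3.62%) at a median depth of 5115 UMIs. Cluster 2, 2687 cells led by 6330403K07Rik, Cmtm5 and Gja1, had 354 among 2598 (13.6%, interval 12.3% to 15.01%) at a median depth of 4459 UMIs. Clusters 1, 3 and 7 had shares of 12.0%, 9.09% and 12.9%. Clusters 5 and 6 had 2.19% and 2.08%, but their median depths were 732.5 and 1835 UMIs, where 4 UMIs of a gene are harder to reach. Cluster 5 had a Gfap level of 642 CPM, above the 381 CPM of cluster 2. No cluster was given a cell type name.

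Set against the matched cells, the same clusters stood out. Cluster 2 held 39.2% of Gfap-high cells (interval 36.0% to 42.5%) and 27.4% of matched Gfap-zero cells (interval 24.5% to 30.4%). Cluster 4 held 1.22% of Gfap-high cells (interval 0.610% to 2.17%) and 9.31% of matched Gfap-zero cells (interval 7.496% to 11.4%). Without cluster 4, an alternative chosen after seeing the data, the log2 ratios were -0.58 for Phlda3, -0.53 for Cdkn1a and -0.43 for Ccng1, and the median of the p53 list was -0.21. None of the 3 genes then reached 1.5-fold in size, Phlda3 by a small margin. With pairing within the same cluster, also chosen after seeing the data, the log2 ratios were -0.62 for Phlda3, -0.60 for Cdkn1a and -0.53 for Ccng1. Phlda3 and Cdkn1a then stayed past 1.5-fold and Ccng1 did not, and the median of the p53 list was -0.16. With finer clusters (resolution 1.0), the cluster led by Cdkn1a and Phlda3 held 35 Gfap-high cells among 796 (4.40%).

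**Figure D2:**
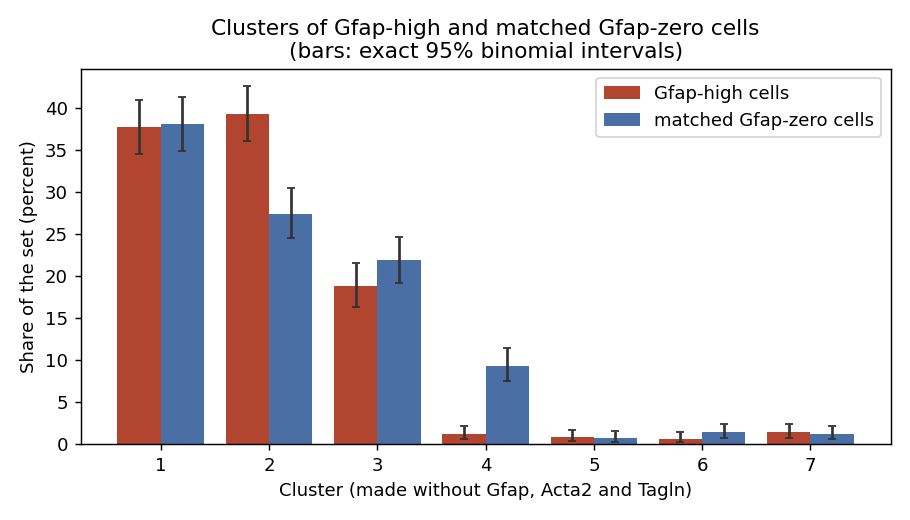
Share of each set of 902 cells (y axis, percent) in each of 7 clusters (x axis), for Gfap-high cells (red, left) and matched Gfap-zero cells (blue, right), with exact 95% binomial intervals that cover counting error only. Cluster 2 held 39.2% of Gfap-high and 27.4% of matched Gfap-zero cells, and cluster 4 held 1.22% of Gfap-high and 9.31% of matched Gfap-zero cells.

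Of the interferon response genes, 2 were called lower. Isg15, a ubiquitin-like protein induced by interferon, had 260 UMIs in 138 Gfap-high cells and 441 UMIs in 148 matched Gfap-zero cells, or 51.0 CPM against 86.6 CPM. After thinning, an Isg15 UMI was present in 9.13% of Gfap-high cells and 10.98% of matched Gfap-zero cells. Of 9 interferon response genes at 20 CPM or more, 2 were called lower, Isg15 and Irf7, and 0 higher. The median was -0.19, against -0.03 for all genes tested, of which 0.48% were called lower. Cxcl10, a chemokine induced by interferon, was at 11.4 CPM in Gfap-high cells and 29.6 CPM in matched Gfap-zero cells, but it was seen in 9 Gfap-high cells and 13 matched Gfap-zero cells. Its 5 richest cells held 91.4% of its UMIs in Gfap-high cells and 93.4% in matched Gfap-zero cells. Ccl5, another chemokine, was seen in 8 Gfap-high cells and 15 matched Gfap-zero cells, and its log2 ratio of -0.83 was positive under 4 alternatives. Without cluster 7, the 126 cells led by Cxcl10, Ccl2 and Ccl7, an alternative also chosen after seeing the data, the log2 ratio was -0.42 for Cxcl10 and -0.43 for Isg15, and neither passed the limit. Cluster 7 held 13 Gfap-high cells and 11 matched Gfap-zero cells. Pairing within clusters put Cxcl10 at -0.00. Of 7 genes of MHC class I presentation, 0 were called and the median was -0.21, with B2m at 277.6 CPM in Gfap-high cells and 336.4 CPM in matched Gfap-zero cells. H2-D1 was at 105.7 CPM in Gfap-high cells and 134.1 CPM in matched Gfap-zero cells.

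Among the lower genes, Lcn2 had the log2 ratio farthest from 0. It encodes lipocalin 2, a secreted protein that binds bacterial siderophores and is made by reactive astrocytes. It had 159 UMIs in 69 Gfap-high cells and 411 UMIs in 111 matched Gfap-zero cells, or 31.2 CPM against 80.7 CPM, a log2 ratio of -1.34. Its 5 richest cells held 50.3% of its UMIs in Gfap-high cells and 44.0% in matched Gfap-zero cells. After thinning, an Lcn2 UMI was present in 4.16% of Gfap-high cells and 7.98% of matched Gfap-zero cells, and without thinning in 7.65% of Gfap-high cells and 12.3% of matched Gfap-zero cells. Lcn2 and Gfap are both listed as genes of reactive astrocytes. Of 5 pan-reactive genes at 20 CPM or more, Gfap left out, Lcn2 and Cxcl10 were called lower, and Vim, Hspb1 and Cp were not called. The list median of -0.42 was that of Cp, and it was -0.00 with pairing within the same cluster and between -0.31 and -0.14 under 4 other alternatives. Of 4 genes of the A1 reactive class, 1 was called lower (Fbln5, an elastic fibre protein), while C3, the complement component that marks that class, was at 82.6 CPM in Gfap-high cells and 79.5 CPM in matched Gfap-zero cells. Of 2 genes of the A2 class, 0 were called. Over all genes tested, 0.376% were called higher and 0.48% lower.

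The other lower genes described were Igfbp2, Crybb1, Cryba4, Dhrs3, Chga and Hes1. Igfbp2, a secreted binding protein of insulin-like growth factors, was at 149.5 CPM in Gfap-high cells and 240.2 CPM in matched Gfap-zero cells, a log2 ratio of -0.68. Crybb1 and Cryba4, crystallin genes that lie next to each other on chromosome 5, were at 47.3 CPM and 11.6 CPM in Gfap-high cells, against 96.8 CPM and 24.7 CPM in matched Gfap-zero cells. Dhrs3, a retinal reductase, was at 8.83 CPM in Gfap-high cells and 22.4 CPM in matched Gfap-zero cells. Chga, the secretory granule protein chromogranin A, was at 13.1 CPM in Gfap-high cells and 30.0 CPM in matched Gfap-zero cells. Its log2 ratio of -1.13 was -0.57 with no contractile limit and -0.32 with 2 or more Gfap UMIs, both below the limit of the call, and its 5 richest cells held 25.4% of its UMIs in Gfap-high cells and 35.9% in matched Gfap-zero cells. Hes1, a transcriptional repressor downstream of Notch, was at 12.6 CPM in Gfap-high cells and 20.4 CPM in matched Gfap-zero cells.

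**Figure D3:**
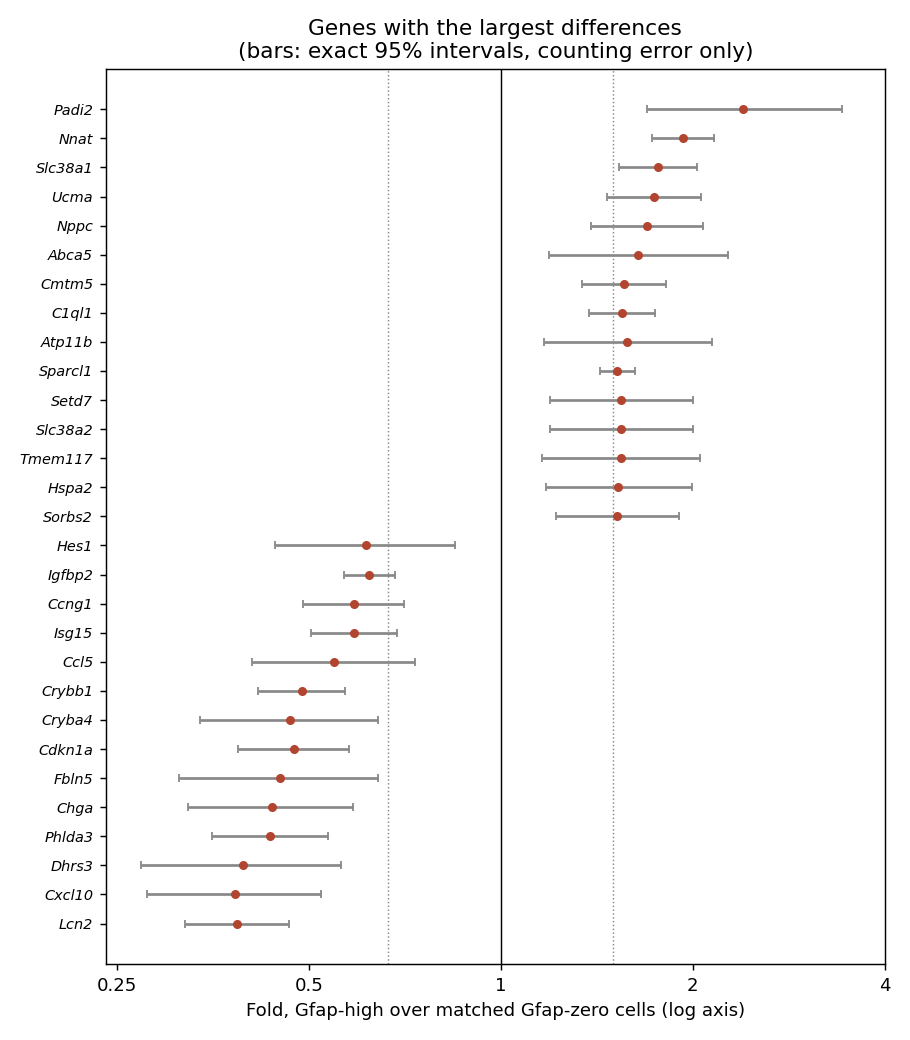
Fold of Gfap-high over matched Gfap-zero cells (x axis, log scale) for the 15 higher and 14 of the 15 lower called genes of largest log2 ratio, with exact 95% intervals for counting error. Dotted lines mark the 1.5-fold limit; Padi2 stands at 2.39, the other higher genes between 1.52 and 1.93, and Lcn2 at 0.387.

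Genes that define astrocytes differed little, and mostly upward. Of 17 astrocyte identity genes at 20 CPM or more, Gfap left out, 16 had a positive log2 ratio. Of the 17, 1 was called higher (Sparcl1) and 0 lower, against 0.376% and 0.48% of all genes tested. The list median was 0.15, against -0.03 for all genes. The water channel gene Aqp4, whose protein lines astrocyte endfeet, was at 712.6 CPM in Gfap-high cells and 515.8 CPM in matched Gfap-zero cells, a fold of 1.38 with an interval of 1.31 to 1.45. Gja1, the gap junction protein connexin 43, was at 84.7 CPM in Gfap-high cells and 61.8 CPM in matched Gfap-zero cells. Aldoc, an aldolase of astrocytes, was at 1095 CPM in Gfap-high cells and 860.5 CPM in matched Gfap-zero cells. Slc1a3, the glutamate transporter GLAST, was at 210.1 CPM in Gfap-high cells and 201.4 CPM in matched Gfap-zero cells. Sox9, a transcription factor of glial fate, was at 273.6 CPM in Gfap-high cells and 254.2 CPM in matched Gfap-zero cells. Clu, the secreted chaperone clusterin, was at 4277 CPM in Gfap-high cells and 4068 CPM in matched Gfap-zero cells. S100b, a calcium-binding protein of mature astrocytes, was at 13.5 CPM in Gfap-high cells and 11.6 CPM in matched Gfap-zero cells, below the level at which genes were tested. Among the genes of this list at 20 CPM or more the fold of 1.52 of Sparcl1 was the largest, so matched Gfap-zero cells carried the other astrocyte genes at closer levels. Summed over the list after thinning, the median was 30 UMIs in Gfap-high cells and 27 in matched Gfap-zero cells.

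Neither of the partner filaments Vim and Nes was called. Vim was at 2593 CPM in Gfap-high cells and 2620 CPM in matched Gfap-zero cells, a fold of 0.990 with an interval of 0.966 to 1.01. Nes, nestin, was at 60.6 CPM in Gfap-high cells and 55.0 CPM in matched Gfap-zero cells, with an interval of the fold of 0.935 to 1.30. Its log2 ratio was 0.14, and 0.41 with pairing within the same cluster, which left that interval but was below the limit of the call. Plec, the cytolinker plectin that binds intermediate filaments, was at 30.4 CPM in Gfap-high cells and 21.6 CPM in matched Gfap-zero cells and was not called. Synm, synemin, had 5 UMIs in Gfap-high cells and 20 in matched Gfap-zero cells and stayed below 20 CPM.

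Signalling lists known to bear on Gfap were mixed. With 0.856% of all genes tested called in either direction, 0 calls in a short list is the usual outcome. Such a count does not show that the genes of the list were alike. Id3, an inhibitor of basic helix-loop-helix factors induced by bone morphogenetic proteins, was at 1656 CPM in Gfap-high cells and 1288 CPM in matched Gfap-zero cells, a fold of 1.29 with an interval of 1.24 to 1.33. Id1, Id2 and Id4 had log2 ratios of 0.03, -0.01 and 0.06, and the 9 genes of the BMP and Id list had 0 calls and a median of 0.03. Of 7 genes of STAT3 and gp130 signalling, 0 were called; Il6st, the shared receptor gp130, had a log2 ratio of 0.34 and Stat3 0.21, while 3 of the 7 were negative, among them Pim3 at -0.30 and Junb at -0.19. Among 13 gliogenic transcription factors 0 were called, with Hopx at 0.46 and Lhx2 at -0.43. Of 10 brain proteoglycans 0 were called and 8 had positive values, among them Bcan at 0.34, Ncan at 0.29 and Ptprz1 at 0.21. Gpc4, a glypican, was farthest from 0 in this list at -0.53, with 50.8 CPM in Gfap-high cells and 73.8 CPM in matched Gfap-zero cells.

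Metabolic lists stayed near the median of all genes, and 0 calls in them is again near the 0.856% called over all genes tested. Of 14 genes of one-carbon metabolism and the methionine cycle, the pathway of the metabolites in MIM, 0 were called and the median was -0.00. Gldc, the decarboxylase of glycine cleavage, was at 33.3 CPM in Gfap-high cells and 48.1 CPM in matched Gfap-zero cells, and Srm, spermidine synthase, at 26.3 CPM in Gfap-high cells and 36.1 CPM in matched Gfap-zero cells. Of 10 cholesterol synthesis genes 0 were called and 9 had negative values, with a median of -0.14. Of 17 glycolysis and hypoxia genes 0 were called, with a median of -0.07. In 13 further lists 0 genes were called, with medians between -0.12 and 0.12; they covered channels, endfoot genes, glutamate handling, growth factor receptors, chaperones, metallothioneins, lipoproteins, contractile genes, immediate early genes, S100 proteins, amino acid stress, nuclear RNAs and mitochondrial genes. The S phase list had 3 genes at 20 CPM or more, 0 called and a median of -0.16. Lists that share a called gene with those above were cell cycle arrest (Cdkn1a and Trp53inp1), Notch and progenitor genes (Hes1), complement (Lcn2), insulin-like growth factors (Igfbp2) and matrix (Sparcl1).

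Markers of other cell types were at like levels in both sets. Summed microglial and macrophage markers were at 0.785 CPM in Gfap-high cells and 0.589 CPM in matched Gfap-zero cells, and 10 of 12 were at 0 in both. Mural and endothelial markers summed to 4.51 CPM in Gfap-high cells and 6.48 CPM in matched Gfap-zero cells, with 7 of 13 at 0. Fibroblast and meningeal markers summed to 352 CPM in Gfap-high cells and 368 CPM in matched Gfap-zero cells, carried by Ogn, Omd and Islr, with Col1a2, Col3a1 and Lum at 0. Oligodendrocyte lineage markers summed to 235 CPM in Gfap-high cells and 227 CPM in matched Gfap-zero cells, carried mainly by Olig1 and Cnp, with Sox10 and Mog at 0. Neuron markers summed to 76.7 CPM in Gfap-high cells and 69.5 CPM in matched Gfap-zero cells, with Dcx and Rbfox3 at 0. Ependymal and choroid plexus markers summed to 120 CPM in Gfap-high cells and 127 CPM in matched Gfap-zero cells. Genes of G2 and M phase summed to 18.4 CPM in Gfap-high cells and 24.7 CPM in matched Gfap-zero cells. Whether free RNA or cells of other types had a part in the differences was not tested.

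**Figure D4:**
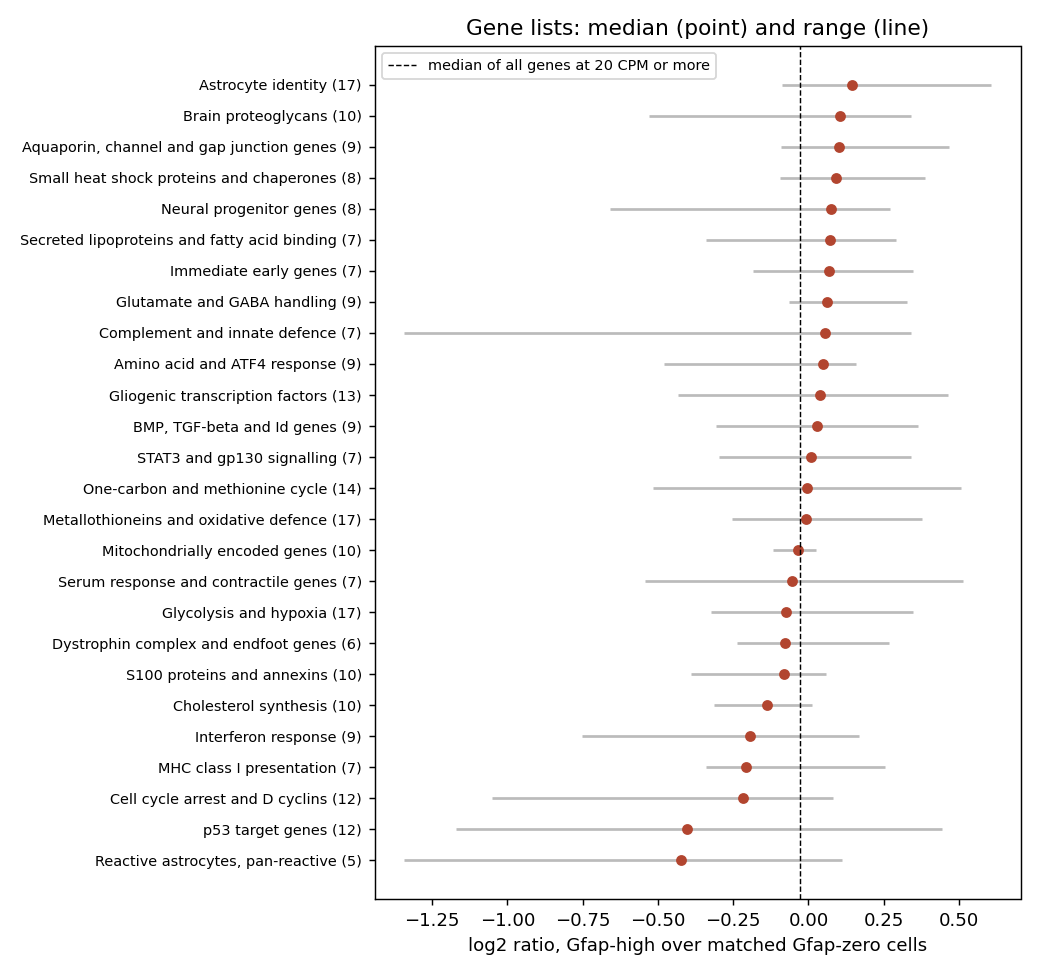
Median (points) and range (lines) of the log2 ratio of Gfap-high over matched Gfap-zero cells (x axis) for gene lists with at least 5 genes at 20 CPM or more (y axis, number of such genes in brackets). The dashed line is the median of all genes, -0.03; astrocyte identity lies highest at 0.15, and the p53 targets and pan-reactive genes lie lowest at -0.40 and -0.42. With pairing within the same cluster these medians were -0.16 and -0.00.

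The levels of several genes rose or fell in steps over classes of Gfap counts. Cells within the contractile limit were placed in classes of 0, 1, 2 to 3, 4 to 7 and 8 or more Gfap UMIs, each weighted to the depth of the Gfap-high cells. The classes held 4634, 1818, 1236, 599 and 303 cells. Sparcl1 stood at 332, 401, 448, 464 and 574 CPM from the lowest class to the highest. Aqp4 stood at 517, 562, 601, 670 and 800 CPM, and Id3 at 1272, 1401, 1496, 1580 and 1806 CPM. Each of these genes was higher in every class than in the one below. Counts this low measure the Gfap of a cell with much error, so a class can mix cells of unlike Gfap level. The steps therefore cannot tell a gradual difference from a changing mixture of distinct cells.

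Padi2 stood at 8.20, 9.03, 16.5, 21.8 and 24.5 CPM over the same classes. In the other direction, Lcn2 stood at 108, 91.5, 64.0, 41.1 and 11.6 CPM and Phlda3 at 54.6, 47.6, 37.6, 28.1 and 21.8 CPM. Cdkn1a stood at 56.7, 51.7, 40.7, 27.9 and 31.4 CPM, so its top classes were not ordered. Of the 15 named higher genes 5 were higher at every step, and of the 15 named lower genes 7 were lower at every step. Of all 4789 genes tested, 119 (2.48%) were higher and 225 (4.7%) lower at every step, but the named genes were chosen on the top classes, so their counts are no support. The class of 4 to 7 lacked cells in 1 depth bin and that of 8 or more in 6. The 2 highest classes are the cells of the comparison above, so they are not separate evidence.

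**Figure D5:**
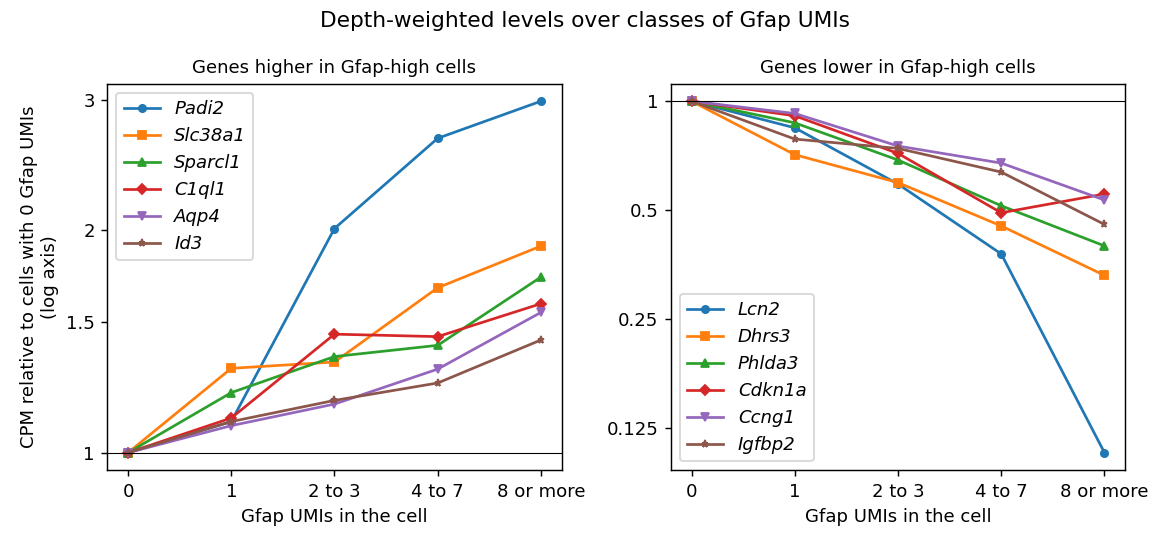
Level relative to cells with 0 Gfap UMIs (y axis, log scale) over classes of Gfap UMIs per cell (x axis), weighted to the depth of the Gfap-high cells, for genes higher (left) and lower (right) in Gfap-high cells. Padi2 stands at 8.20 CPM in the lowest class and 24.5 CPM in the highest, and Lcn2 at 108 CPM in the lowest and 11.6 CPM in the highest.

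Gfap-high cells were not uniform among themselves. At 3000 UMIs a cell, Clu had a median of 11 UMIs and a range of 1 to 44 over 865 cells. Vim had a median of 7 and a range of 0 to 23, and Id3 a median of 5 and a range of 0 to 19. Aqp4 had a median of 2 and a range of 0 to 11, with no UMI in 25.7% of cells. Slc38a1 was without a UMI in 72.1% of cells, Cdkn1a in 91.6% and Lcn2 in 95.8%. Lcn2 nonetheless reached 21 UMIs and Nnat 40 UMIs in single cells. Clu and Vim were thus seen in nearly all Gfap-high cells, and the genes with the largest folds in a minority of them.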

How the data were processed

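The deposited matrices hold UMI counts for 31053 genes, which the authors made with Cell Ranger 3.0.2 on the 10x mm10 reference, per the labels' protocols. The submitters' processing notes also name Seurat 3.1.1 without its use. The library of Astrocytes held 50598967 UMIs in 9825 barcodes, each with at least 500 UMIs.

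Cells with at least 200 genes and at most 20% mitochondrial UMIs were kept. Each Gfap-high cell, deepest first, took the unused Gfap-zero cell closest in total UMIs within 5%. UMIs were summed per set and scaled to CPM, with a pseudocount of 1 CPM in log2 ratios. CPM folds have exact conditional intervals, CPM exact Poisson ones and shares exact Clopper-Pearson ones. Intervals treat UMIs as independent, so uneven cells make them too narrow. A share of 0 allows 3 counts.

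Named genes were the 15 called genes with the most extreme log2 ratios on either side, leaving out Gfap, Acta2, Tagln, mitochondrial, ribosomal, haemoglobin and sex-linked (Xist, Tsix, Y) genes and clone-like names (5 called genes), plus 9 fixed genes and at most 4 genes a list by size. A few further list members, such as Vim's partner genes, p53 targets and neighbours of Gfap, were chosen after their values were seen. The members and the 41 lists were chosen with earlier results of these data known. One named gene is not reported here. Clustering used 2000 variable genes, 30 principal components, 15 neighbours and Leiden resolution 0.5, seed 1. Alternatives changed matching, limits, scaling, weighting, filters and resolution. Scripts were tested on simulated data. The software was scanpy 1.11.5 and igraph 0.11.9 for clusters, scipy 1.17.1 for intervals, edgeR 4.0.16 in R 4.3.3 for TMM scaling alone, and numpy 2.4.6 and pandas 2.3.3 in Python 3.11.15. Coordinates came from GENCODE vM21 by gene ID.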

Additional observations from a re-analysis of the deposited data

How the results depend on the processing

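The counts of genes called, 18 higher and 23 lower, moved with the limits that define the sets. They were 4 and 8 with 2 or more Gfap UMIs, 114 and 137 with 8 or more (303 cells a set), and 35 and 46 with 0 UMIs of Acta2 and Tagln. They were 7 and 8 at 50 CPM, 537 and 642 with no filter on low values, and 1 and 9 at 2-fold. The higher count alone moved to 11 with Gfap-zero cells weighted over depth bins, 6 with no depth matching and 10 with a pseudocount of 5 CPM. Pairing within the same cluster, chosen after seeing the data, gave 15 higher and 13 lower, of which 8 and 11 were among the genes first called. Leaving out cluster 4, cluster 7 or the 5 richest cells for a gene was also chosen after seeing the data. The 50 CPM filter, the lack of a filter and the 2-fold rule cannot alter a log2 ratio. A mitochondrial limit of 10% left 902 cells in each set and the same calls. Each of these alternatives adds 30 unmoved values to the next count, which therefore overstates stability. Of 600 repeat log2 ratios of the 30 named genes, 533 stayed within the counting interval, 63 left it with the same sign, and 4 turned round. Those 4 were Ccl5, at 0.10 with weighted bins, 0.27 with no depth matching, 0.30 with pairing on UMIs without Malat1 and mitochondrial genes, and 1.28 with 8 or more Gfap UMIs; the cause was not tested. With 2 or more Gfap UMIs, the limits were met by 0.114% of MIM-Astrocytes and 21.8% of Astrocytes. Of the 30 named genes, 12 came under 1.5-fold with weighted bins, 9 each with no contractile limit, without cluster 4 and with pairing on UMIs without Malat1 and mitochondrial genes, and at most 8 in each of the others not given above or in the report. Thinning to 5000 UMIs or not at all kept Padi2 and Slc38a1 in more, and Lcn2, Phlda3 and Cdkn1a in fewer, Gfap-high than matched Gfap-zero cells. TMM scaling moved the median of all genes by under 0.1 on the log2 scale. No paired analysis was possible because each group was 1 library. With 1 culture, differences between cultures of the same kind were not measured, and genes under about 20 CPM could not be called.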
